A study of Mus musculus with 12 samples.

Results

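The 9 genes described here encode proteins that cut the extracellular matrix, or that hold such cutting in check: the metalloproteinase inhibitors Timp1, Timp2 and Timp3, the metalloproteinases Mmp14, Adamts1 and Adamts4, the plasminogen activators Plat and Plau, and the receptor Plaur. They were taken by gene symbol from a table of 31208 genes, and all 9 were listed. Brain RNA of 12 C57BL/6 mice aged 8 weeks was sequenced, 4 sham mice and 8 mice with cerebral ischemia of 6 h, produced by middle cerebral artery occlusion. Of the ischemic mice, 4 had received vehicle and 4 had received lactate, 2 μL at 100 mmol/L, by i.c.v. injection 24 h before the occlusion. The methods name sterile saline as the vehicle and D-lactate for this experiment, whereas the labels give lactate without its form. The sources used here do not state whether the sham mice were injected, so injection and ischemia cannot be told apart in the comparisons with sham, nor do they name the brain region taken.

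Matrix metalloproteinases and the ADAMTS proteases (a disintegrin and metalloproteinase with thrombospondin motifs) cut collagens, proteoglycans and other matrix proteins, and the tissue inhibitors of metalloproteinases (TIMPs) bind and block them. Plasminogen activators turn plasminogen into plasmin, which dissolves fibrin and can activate some metalloproteinases, while the urokinase receptor holds urokinase at the cell surface. In the ischemic brain this system is known for its part in opening the blood-brain barrier, and the protein encoded by Plat is the clot-dissolving agent given to patients with stroke.

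Total counts per mouse ranged from 6815920 to 10677224, and the floor of 3 counts stood at 0.281 to 0.44 CPM (the deposited count scaled to the mouse's total). Markers of neurons, astrocytes and oligodendrocytes were present in every mouse. Vehicle mouse 1 lay apart on the second principal component of all genes, with 13.6% of the variance (-57.2, against 7.94 to 14.6 for the other vehicle mice). Its neuron markers summed to 4893 CPM, against 2987 to 3232 CPM in the other vehicle mice. Its microglia markers summed to 118 CPM, against 145 to 195 CPM in those mice. Vehicle mouse 2 held 1817 CPM of Ttr, a choroid plexus gene, against 2.64 to 13.8 CPM in the other vehicle mice. The calls with vehicle are therefore also given without each of these mice. The RNA is of whole tissue, so a change in the number of cells of a type and a change of RNA per cell cannot be told apart.

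Against sham, 4 of the 9 genes rose in vehicle-treated ischemic brains and 5 rose in lactate-treated ischemic brains. Timp1, Adamts1, Plat and Plaur rose in both comparisons, and Timp3 passed the test in the comparison with lactate alone. Timp2, Mmp14 and Adamts4 were not called in any comparison, and Plau was too low to enter that fit. A call here is a Benjamini-Hochberg adjusted p under 0.05 over all genes in edgeR's quasi-likelihood test together with a fold change of at least 1.5. Among all genes tested, 1.29% were called higher with vehicle and 7.88% with lactate. The counts of members rest on 8 tested genes, and Timp1 passed the filter on low values only through its ischemic mice. When a single sham mouse was left out, the count with vehicle fell from 4 to 1 or 2. The calls over all genes then fell from 250 to between 114 and 127. The median log2 fold change of the 8 was 1.02 with vehicle and 0.89 with lactate, against 0.003 and -0.027 over all genes tested. The 4 sham mice serve both comparisons, which are thus not independent of each other. When the groups were compared by mouse, 5 genes had all vehicle mice above all sham mice (4.14% of all genes did) and 5 had all lactate mice above all sham mice (10.4% of all genes).

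**Figure D1:**
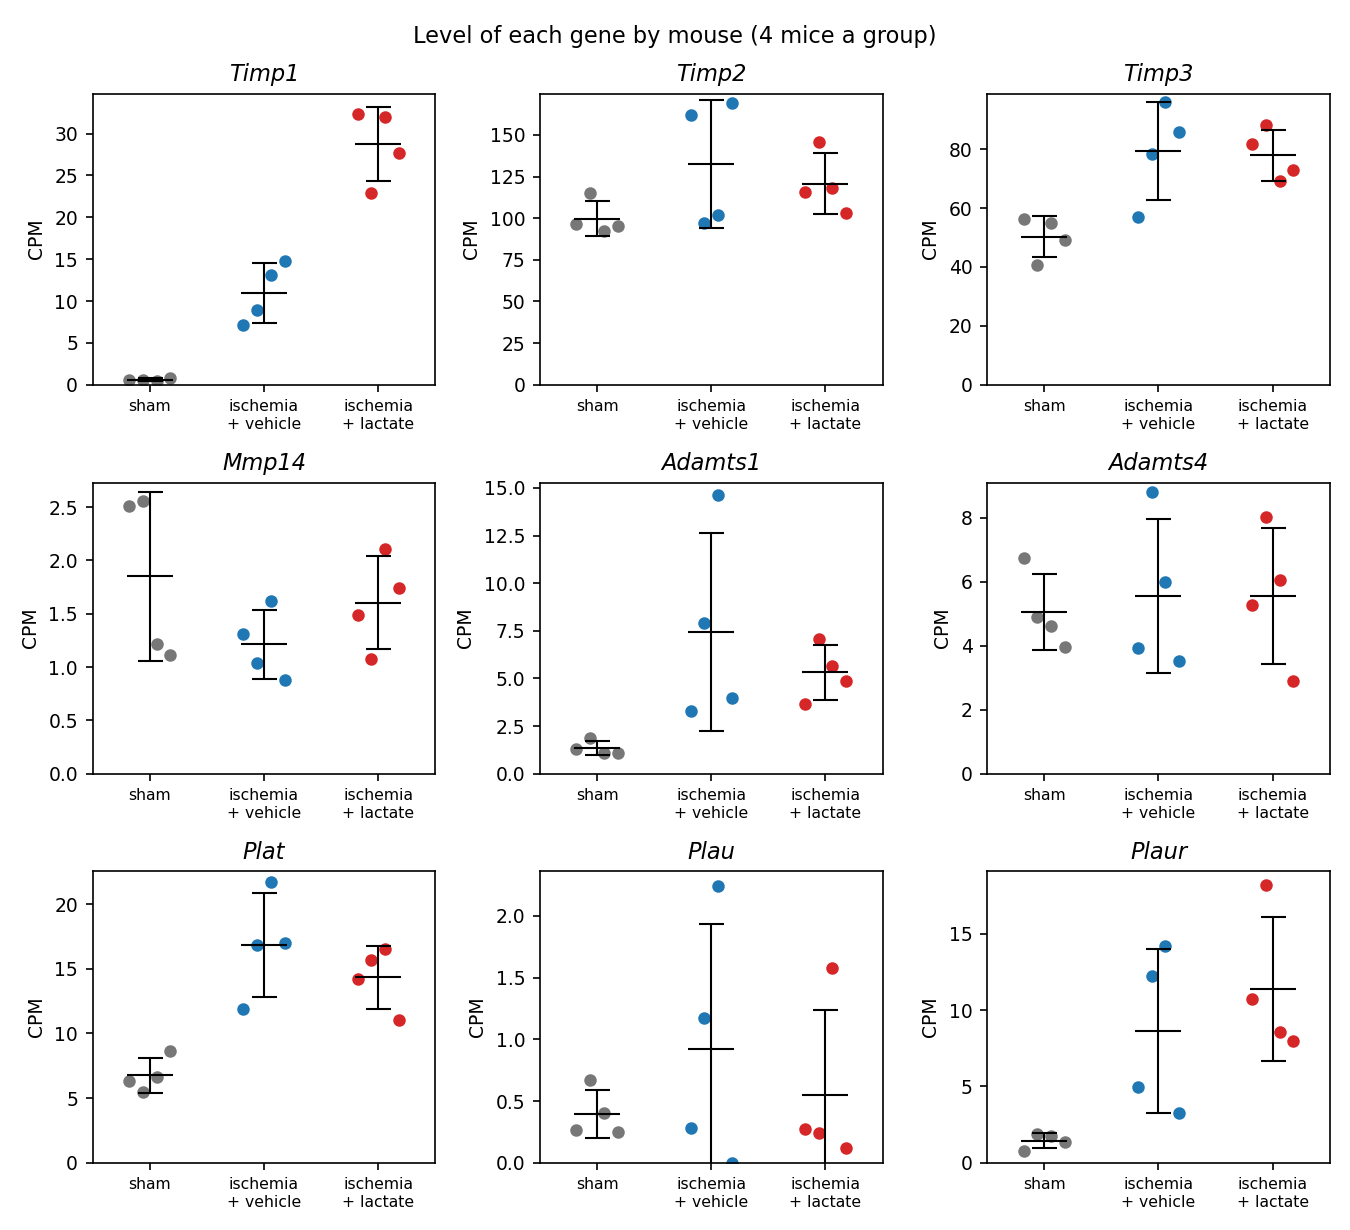
Level of each of the 9 genes in CPM (vertical axes, each with its own scale from 0) by group. Points are mice, long bars are the means and whiskers the SD of 4 mice, cut off at 0 for Plau. In Timp1 the sham, vehicle and lactate mice form 3 separate ranges, while in Mmp14, Adamts4 and Plau the ranges overlap.

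The bases before the start site are shown for 3 of the genes that rose with both treatments, Timp1, Adamts1 and Plaur, because their common rise raises the question of which known motifs lie there. The RefSeq promoter table on GRCm38.p6 held windows for 6 of the 9 genes, and none for Adamts4, Plat and Plau. Each run below is the 250 bases that precede the annotated start, 5′ to 3′ on the gene's strand. The windows are chrX:20869916-20870165 on the plus strand, chr16:85803114-85803363 on the minus strand and chr7:24462233-24462482 on the plus strand. Capitals mark a match to one of the motifs searched.
Timp1: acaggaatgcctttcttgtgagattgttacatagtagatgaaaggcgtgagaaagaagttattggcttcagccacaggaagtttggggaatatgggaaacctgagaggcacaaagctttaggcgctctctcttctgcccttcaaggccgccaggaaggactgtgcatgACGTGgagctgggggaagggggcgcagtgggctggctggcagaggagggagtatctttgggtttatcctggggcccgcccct
Adamts1: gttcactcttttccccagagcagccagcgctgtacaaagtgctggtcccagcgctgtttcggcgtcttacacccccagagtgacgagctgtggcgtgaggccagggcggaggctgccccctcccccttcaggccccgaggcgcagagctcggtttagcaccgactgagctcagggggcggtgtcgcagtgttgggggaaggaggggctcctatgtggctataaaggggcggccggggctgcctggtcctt
Plaur: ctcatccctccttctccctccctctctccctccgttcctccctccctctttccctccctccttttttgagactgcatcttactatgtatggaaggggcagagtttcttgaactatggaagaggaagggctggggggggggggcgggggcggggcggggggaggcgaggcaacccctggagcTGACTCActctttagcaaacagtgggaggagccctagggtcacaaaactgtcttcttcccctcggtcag
The windows of 250 bases before and 50 after the start were searched on both strands. The letters were TGANTCA (AP-1), TGACGTCA (CRE), TTCNNNGAA (STAT) and ACGTG (a form of the core bound by hypoxia-inducible factors). For NF-kappa B they were GGG followed by any 2 bases and TTTCC. The AP-1 letters occurred in Plaur at bases -69 to -63, and in 7.81% of the 32851 windows of the table. The ACGTG core occurred in Timp1 at -82 to -78 and, on the other strand, in Mmp14 at -48 to -44, and in 19.6% of all windows. The CRE, NF-kappa B and STAT letters, held by 1.79%, 1.63% and 8.3% of all windows, were in none of the 6 windows. The Adamts1 window held none of the 5 patterns of letters, and other forms of these motifs were not searched. A match is a description of the sequence only.

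Timp1, an inhibitor of most matrix metalloproteinases that is induced in many injured tissues, rose more than any other gene of the 9 in both comparisons with sham. It lies on chrX:20870166-20874735 (GRCm38, plus strand, ENSMUSG00000001131). Sham mice held 0.527, 0.557, 0.407 and 0.863 CPM, from 4, 5, 3 and 7 counts, close to the floor. The vehicle mice held 7.12, 8.94, 13.1 and 14.8 CPM. The lactate mice held 32.3, 22.9, 32 and 27.7 CPM. Every ischemic mouse was above every sham mouse, and every lactate mouse was above every vehicle mouse. The mean was 0.589 ± 0.194 CPM in sham, 11 ± 3.57 with vehicle and 28.7 ± 4.44 with lactate (SD, n = 4 each). Against sham its log2 fold change was 4.20 with vehicle (SE 0.35, edgeR adjusted p = 2.23e-05) and 5.59 with lactate (SE 0.25, adjusted p = 2.78e-08). Without vehicle mouse 1 the value with vehicle was 4.36, and without vehicle mouse 2 it was 4.29. Timp1 lies within Syn1 on the opposite strand, and the sources used here do not state whether the counting used strand. Syn1, a synaptic vesicle gene, averaged 144, 145 and 147 CPM in the sham, vehicle and lactate mice.

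Timp2, an inhibitor that also takes part in the activation of pro-Mmp2 with Mmp14, was called in no comparison. It lies on chr11:118301069-118355740 (minus strand). Its level was 96.5, 115, 92.3 and 95.2 CPM in the sham mice, 162, 97.1, 102 and 169 CPM in the vehicle mice and 116, 146, 118 and 103 CPM in the lactate mice. Vehicle mice 1 and 4 were the highest of all, and vehicle mice 2 and 3 lay among the sham mice. Its log2 fold change against sham was 0.44 with vehicle (SE 0.19, 95% interval 0.07 to 0.82, edgeR adjusted p = 0.329) and 0.30 with lactate (SE 0.13, 95% interval 0.05 to 0.55, adjusted p = 0.143). Without vehicle mouse 1 the value with vehicle was 0.33 (adjusted p = 0.387), and without vehicle mouse 2 it was 0.57 (adjusted p = 0.205).

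Timp3, which is bound to the matrix and also inhibits several ADAM and ADAMTS proteases, was 1.62 times as high as in sham with vehicle and 1.59 times as high with lactate, and was called with lactate. It lies on chr10:86300372-86349506 (plus strand), with Syn3 on the opposite strand at a mean of no more than 1.88 CPM. In CPM, the sham mice stood at 56.4, 40.7, 54.9 and 49.3, the vehicle mice at 57.1, 78.5, 96.1 and 85.8 and the lactate mice at 81.7, 88.1, 69 and 72.9. All ischemic mice were above all sham mice, vehicle mouse 1 by the smallest margin (57.1 against 56.4 CPM). Against sham it changed by a log2 fold of 0.69 with vehicle (SE 0.17, edgeR adjusted p = 0.0793), which missed the threshold, and 0.67 with lactate (SE 0.13, adjusted p = 0.00494). Without vehicle mouse 1 the comparison with vehicle gave 0.82 and was called (adjusted p = 0.00798), and without vehicle mouse 2 it gave 0.70 and was not (adjusted p = 0.138). Over all alternatives its adjusted p ranged from 0.00798 to 0.225. The 2 comparisons with sham do not show that Timp3 differed between the treatments, for which the direct comparison gave -0.04 (95% interval -0.37 to 0.28).

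**Figure D2:**
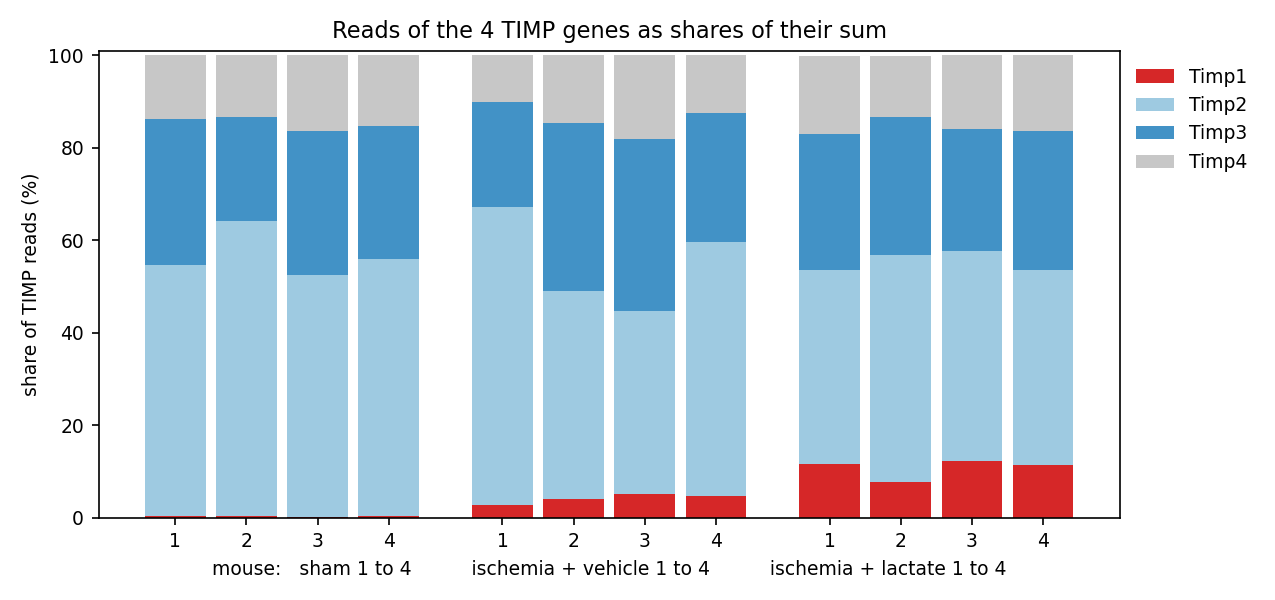
Reads of Timp1, Timp2, Timp3 and Timp4 as a percentage of their sum (vertical axis) in each of the 12 mice (horizontal axis, by group). The Timp1 share is under 1% in the sham mice, 2.82% to 5.08% in the vehicle mice and 7.73% to 12.3% in the lactate mice.

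As a share of the reads of the 4 TIMP genes, which needs no scaling between libraries, Timp1 made up 0.335% ± 0.117 in sham, 4.21% ± 1.01 with vehicle and 10.8% ± 2.06 with lactate (SD, n = 4 each, 1300 to 2691 reads a mouse). Shares are of reads and are not corrected for transcript length. The share ranged from 0.231% to 0.503% in sham, and the 3 groups did not overlap. The Timp2 share was 56.4% ± 5.04, 50.9% ± 11 and 44.7% ± 3.4 in the same order. Timp3 made up 28.5% ± 4.15, 31.1% ± 7.02 and 28.9% ± 1.7, and Timp4 14.7% ± 1.42, 13.8% ± 3.36 and 15.6% ± 1.63. The shares of Timp3 and Timp4 overlapped between all groups. The Timp2 share ranged from 52.3% to 63.8% in sham and from 41.9% to 49.2% with lactate, without overlap. With vehicle it ranged from 39.6% to 64.4%. The mean level of Timp2 was 99.7 CPM in sham and 121 CPM with lactate, so that its level did not fall with its share.

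Mmp14, a membrane-anchored metalloproteinase that cuts collagen at the cell surface, was low in all mice. It lies on chr14:54431612-54445364 (plus strand). Its counts were 19, 23, 9 and 9 in sham, 14, 8, 13 and 6 with vehicle and 11, 9, 16 and 15 with lactate, so that each value rests on few reads. In CPM, sham mice held 2.51, 2.56, 1.22 and 1.11, vehicle mice 1.31, 1.04, 1.62 and 0.88, and lactate mice 1.49, 1.08, 2.11 and 1.74. The groups overlapped, with sham mice 1 and 2 the highest. Fitted against sham, its log2 fold change was -0.57 with vehicle (95% interval -1.32 to 0.19, edgeR adjusted p = 0.559) and -0.19 with lactate (95% interval -0.91 to 0.53, adjusted p = 0.792).

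Adamts1, a secreted protease that cuts the proteoglycans aggrecan and versican, rose in both ischemic groups. It lies on chr16:85793827-85803113 (minus strand, ENSMUSG00000022893), and no other gene overlaps it. The sham mice held 1.32, 1.89, 1.09 and 1.11 CPM, from 8 to 17 counts. The vehicle mice held 3.28, 7.9, 14.6 and 3.96 CPM and the lactate mice 3.65, 7.07, 5.67 and 4.87 CPM. All ischemic mice exceeded all sham mice, and the vehicle mice spread widely, with mouse 3 far above mice 1 and 4. In edgeR its log2 fold change was 2.46 with vehicle (SE 0.47, adjusted p = 0.021) and 1.98 with lactate (SE 0.30, adjusted p = 0.0013). The call with vehicle was lost when any single sham mouse was left out (adjusted p = 0.055 to 0.0912, log2 fold change 2.37 to 2.70), and it held without vehicle mouse 1 or 2 (adjusted p = 0.00546 and 0.0466). With lactate the call held without any single mouse (highest adjusted p = 0.00746).

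Adamts4, an aggrecanase that also cuts brevican, varied between the mice of each group and was called in no comparison. It lies on chr1:171250421-171260637 (plus strand). The sham mice held 6.73, 4.9, 4.62 and 3.95 CPM, the vehicle mice 3.93, 8.81, 5.98 and 3.52 CPM and the lactate mice 5.27, 8.02, 6.07 and 2.9 CPM. Each ischemic group held mice both above and below the sham range. Its log2 fold change was 0.17 in both comparisons with sham, with a 95% interval of -0.43 to 0.78 with vehicle (edgeR adjusted p = 0.856) and of -0.39 to 0.74 with lactate (adjusted p = 0.753). The sign of both values turned when 1 ischemic mouse, mouse 2 of its group, was left out (-0.13 and -0.07).

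Plat, the gene of tissue plasminogen activator, rose in both ischemic groups. It lies on chr8:22757727-22782844 (plus strand, ENSMUSG00000031538). The sham mice held 6.33, 5.46, 6.65 and 8.63 CPM, the vehicle mice 11.9, 16.8, 21.7 and 17 CPM and the lactate mice 14.2, 15.7, 16.5 and 11 CPM. The ischemic ranges overlapped each other and both lay above the sham range. The mean was 6.77 ± 1.34 CPM in sham, 16.9 ± 3.99 with vehicle and 14.3 ± 2.41 with lactate (SD, n = 4 each). The log2 fold change was 1.35 with vehicle (SE 0.23, edgeR adjusted p = 0.0104) and 1.11 with lactate (SE 0.20, adjusted p = 0.00353). The call with vehicle was lost at the threshold without sham mouse 2 or sham mouse 3 (adjusted p = 0.0509 and 0.0519), at log2 fold changes of 1.27 and 1.33. It held without vehicle mouse 1 or 2 (adjusted p = 0.0023 and 0.0276).

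Plau, the gene of urokinase, was at or near the floor in most mice. It lies on chr14:20836660-20843385 (plus strand). Its counts were 2, 6, 3 and 2 in sham, 3, 9, 18 and 0 with vehicle and 2, 2, 12 and 1 with lactate. The highest values, 2.24 CPM in vehicle mouse 3 and 1.58 CPM in lactate mouse 3, stood beside mice at 0 and 0.116 CPM in the same groups. The gene did not pass the filter on low values and was compared on log2(CPM + 1) by two-sided exact permutation tests, for which 4 against 4 mice can give no p below 0.0286. The difference was 0.32 for vehicle against sham (exact p = 0.457), 0.07 for lactate against sham (exact p = 0.943) and -0.25 for lactate against vehicle (exact p = 0.657), and the adjusted p over the 3 tests was 0.943 for each. The spread within each ischemic group, from 0 to 18 counts with vehicle and from 1 to 12 with lactate, limits these comparisons as the low counts do. Of the reads of the 2 activators, Plau took 5.86% ± 3.58 in sham, 4.54% ± 4.19 with vehicle and 3.29% ± 3.66 with lactate (SD, n = 4 each, 50 to 192 reads a mouse).

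Plaur, the gene of the urokinase receptor, rose 5.98-fold with vehicle and 7.86-fold with lactate. It lies on chr7:24462484-24475968 (plus strand, ENSMUSG00000046223), and its promoter window is the one above with the AP-1 letters. The sham mice held 0.791, 1.89, 1.77 and 1.36 CPM, from 6 to 17 counts. The vehicle mice held 4.96, 12.2, 14.2 and 3.23 CPM and the lactate mice 10.7, 18.2, 8.57 and 8 CPM. Every ischemic mouse was above every sham mouse, and vehicle mice 1 and 4 were below all lactate mice. The log2 fold change was 2.58 with vehicle (SE 0.47, edgeR adjusted p = 0.0157) and 2.97 with lactate (SE 0.34, adjusted p = 0.000141). The call with vehicle was lost when any single sham mouse was left out (adjusted p = 0.0521 to 0.0665, log2 fold change 2.38 to 2.77). It held without vehicle mouse 1 or 2 (adjusted p = 0.00899 and 0.0449).

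**Figure D3:**
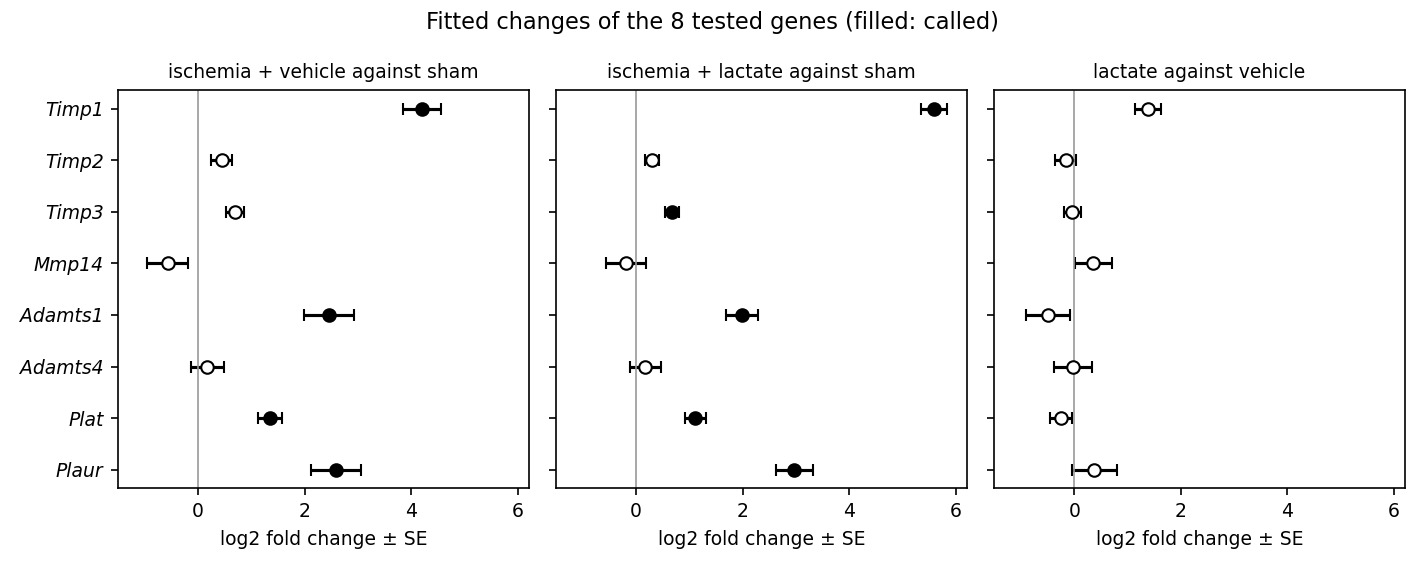
Fitted log2 fold change with its SE (horizontal axes, edgeR) of the 8 tested genes in the 3 comparisons. Filled points were called: 4 with vehicle, 5 with lactate and none between the treatments, where Timp1 has the largest value, 1.38.

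Between lactate-treated and vehicle-treated ischemic brains, none of the 8 tested genes was called by edgeR, and 0.00574% of all genes (1 of 17419) was. At an unadjusted P under 0.05 with the same fold change limit, 1 gene of the 8 passed, Timp1, against 3.76% of all genes that were higher with lactate by that rule. Timp1 was also the 1 gene whose lactate mice all lay above all vehicle mice, which 2.99% of all genes did. Its log2 fold change was 1.38 (SE 0.24, 95% interval 0.91 to 1.84, unadjusted P = 8.49e-05, adjusted p = 0.265), or 2.6 times as high with lactate. DESeq2 called it (adjusted p = 0.000101), as it did 0.287% of all genes in that direction, and the adjusted p ranged from 0.000101 to 0.717 over the alternatives. Without vehicle mouse 1 the log2 fold change was 1.22, and it stayed between 1.22 and 1.55 whichever mouse was left out.

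The other 7 genes had log2 differences of -0.49 to 0.38 between the treatments, with adjusted p of 0.762 or more in edgeR. For Plaur the difference was 0.38 (95% interval -0.45 to 1.21) and for Adamts1 it was -0.49 (95% interval -1.31 to 0.33), and these intervals include changes of over 1.5-fold. Plat was at -0.25 (95% interval -0.66 to 0.17) and Timp2 at -0.16 (95% interval -0.55 to 0.24). Mmp14 stood at 0.36 (95% interval -0.32 to 1.05) and Adamts4 at -0.02 (95% interval -0.72 to 0.68). The intervals of Plat, Mmp14 and Adamts4 also include changes of over 1.5-fold.

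Plaur is known to be expressed by neutrophils and other myeloid cells, and some neutrophil markers rose in both ischemic groups together with the genes above. The summed level of 6 neutrophil markers was 0.557 to 2.77 CPM in sham, 8.8 to 71.8 CPM with vehicle and 16.5 to 39.8 CPM with lactate. Of the 6, S100a8 and S100a9 were called higher in both comparisons and Retnlg with lactate, while it was not tested with vehicle. S100a9 and Retnlg passed the filter on low values only through ischemic mice. The other 3, Ly6g, Camp and Ngp, had at most 2 counts in any mouse, under the floor. In the vehicle mice, S100a8, a calcium-binding protein of neutrophils, was at 6.09, 26.2, 36.1 and 5.72 CPM, and mice 3 and 2 were the highest of their group in 4 of the 9 genes, Plaur, Adamts1, Plau and Adamts4, the last of which was called in no comparison. In the other 5 genes mouse 4 or mouse 1 was among the highest pair. In the lactate mice S100a8 was at 10.5, 12, 19.6 and 7.77 CPM. Plau was likewise highest in lactate mouse 3, while Plaur and Adamts1 were highest in lactate mouse 2. Timp1 had another order, with vehicle mouse 4 highest at 14.8 CPM where S100a8 was lowest. The summed level of 6 endothelial markers was 152 to 158 CPM in sham, 136 to 185 CPM with vehicle and 174 to 219 CPM with lactate. Within that list Ly6c1 was called higher with lactate (74.7 ± 3.65 to 133 ± 25.1 CPM) and Slco1a4 lower (30.5 ± 6 to 9.16 ± 3.43 CPM), so the sum does not stand for one direction. The sum of 5 monocyte and macrophage markers was 7.06 to 10.1 CPM in sham, 8.24 to 18.9 CPM with vehicle and 11.9 to 21.3 CPM with lactate, with Lyz2 called higher with lactate. Markers of mural cells ranged from 28.9 to 47.5 CPM over all mice and overlapped between groups. The choroid plexus sum was 1.36 to 5.41 CPM in sham, 4.25 to 1838 CPM with vehicle and 10.3 to 19.2 CPM with lactate, and Ttr was called higher with lactate. The erythrocyte sum was 560 to 633 CPM in sham, 333 to 500 CPM with vehicle and 375 to 499 CPM with lactate. Among microglial markers, P2ry12 was called lower in both comparisons and Cx3cr1 with vehicle, and among fibroblast markers Col3a1 was called higher with lactate. Mog, an oligodendrocyte marker, and Hbb-bt, an erythrocyte marker, were called lower with lactate. The part of these cells in the levels of the 9 genes was not tested.

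**Figure D4:**
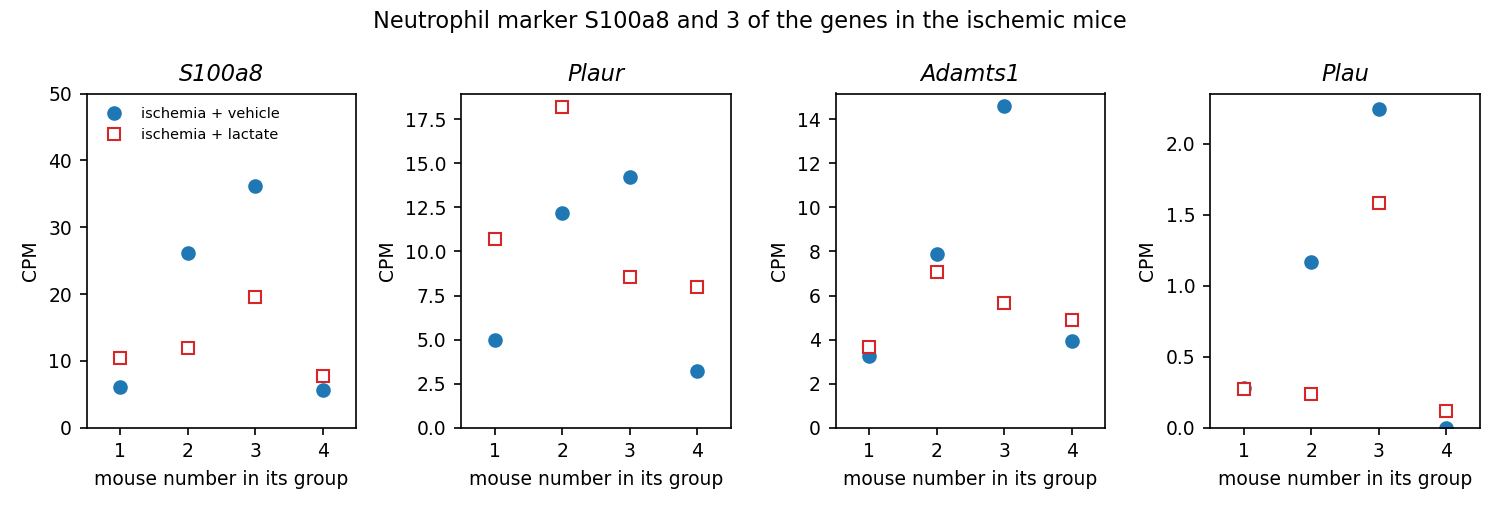
Level in CPM (vertical axes, each from 0) of the neutrophil marker S100a8 and of Plaur, Adamts1 and Plau in the 8 ischemic mice (horizontal axes, mouse number within its group; numbers do not pair mice). Vehicle mice 2 and 3 are the highest vehicle mice in all 4 panels, as in Adamts4 but not in the other 5 of the 9 genes, while of the lactate mice S100a8 and Plau are highest in mouse 3 and Plaur and Adamts1 in mouse 2.

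By correlation of log2(CPM + 1) over the 12 mice, among 9567 genes with a mean of at least 5 CPM, the genes most like each member that rose were listed. These are descriptions over mice that share the same 3 groups. For Timp1 they were Hmox1 (r = 0.981), the heme oxygenase gene, Ctla2a (r = 0.977), and Lcn2 (r = 0.976), the lipocalin 2 gene, which averaged 0.0617, 24 and 43.9 CPM in sham, vehicle and lactate mice. Adamts1 was most like Cd14 (r = 0.972), a co-receptor for bacterial lipopolysaccharide, Sat1 (r = 0.955) and Akap12 (r = 0.953). Cd14 averaged 2.21, 31.6 and 24 CPM, so that its mean, like that of Adamts1, was highest with vehicle. For Adamts1 this order rested on vehicle mouse 3. Without it the log2 fold change of lactate against vehicle went from -0.49 to 0.06. Plat was most like Depp1 (r = 0.963), Rasd1 (r = 0.956) and Tmem252 (r = 0.953). Plaur was most like Tpm4 (r = 0.943), Srgn (r = 0.939) and Tmem252 (r = 0.939). Timp3 was most like Errfi1 (r = 0.959), Plpp6 (r = 0.953) and Slc2a1 (r = 0.944), the glucose transporter of the blood-brain barrier.

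Of 67 other genes of the same system, in 6 lists, none was called with vehicle and 6 were with lactate. With vehicle 35 were tested. None passed in edgeR, where 1.29% of all genes were called higher. At an unadjusted P under 0.05 and the fold change limit 5 were higher (Adamts17, Adam8, Anxa2, Vcan and Hapln4; 6.5% of all genes were) and 0 lower. DESeq2 and voom each called 1, Anxa2, as higher, as they did 2.26% and 1.93% of all genes. With lactate 34 were tested, 4 were higher (7.88% of all genes were) and 2 were lower (2.51% of all genes were). Between the treatments 37 were tested and none was called. At the unadjusted P 1 was higher there (Anxa2; 3.76% of all genes were) and 3 were lower (Adamts10, Bcan and Vcan; 2.47% of all genes were). The median log2 fold change against sham was 0.09 with vehicle and 0.02 with lactate.

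Among the inhibitors, Timp4, the TIMP that is most restricted to brain and heart, averaged 25.9 ± 2.26 CPM in sham, 35.5 ± 9.04 with vehicle and 41.9 ± 3.29 with lactate (SD, n = 4 each). Its log2 fold change was 0.73 with lactate (SE 0.12, edgeR adjusted p = 0.00268) and 0.49 with vehicle (adjusted p = 0.275). Reck, a membrane-anchored inhibitor, was not called. Anxa2, which binds plasminogen and tissue plasminogen activator at the cell surface, rose with lactate by a log2 fold change of 1.72 (SE 0.20, adjusted p = 0.000139), from 12.3 ± 0.775 to 39.9 ± 12.1 CPM. Its partner S100a10 passed the adjusted p with lactate (0.00834) at a log2 fold change of 0.56, under the fold change limit. Adam8, a sheddase of myeloid cells, rose with lactate by 1.95 (SE 0.39, adjusted p = 0.00646), from 0.809 ± 0.3 to 3.1 ± 1.15 CPM, and it passed the filter on low values through its lactate mice. Hapln4, a link protein of the perineuronal matrix, rose by 0.83 (SE 0.17, adjusted p = 0.00751). The 4 calls held without any single mouse (highest adjusted p = 0.0304, for Hapln4).

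Adamts10 and Vldlr were lower with lactate. The log2 fold change of Adamts10, a protease linked to fibrillin microfibrils, was -0.98 (SE 0.30, edgeR adjusted p = 0.0498), and that of Vldlr, a lipoprotein receptor that also takes up activator-inhibitor complexes, was -0.64 (SE 0.20, adjusted p = 0.0485). Sham and lactate mice overlapped in both genes. The calls sat at the threshold, and with single mice left out the adjusted p rose to 0.141 and 0.142. Of the lectican proteoglycans that ADAMTS proteases cut, none was called. Versican (Vcan) had log2 fold changes of 1.20 with vehicle (adjusted p = 0.205) and 0.10 with lactate (adjusted p = 0.896), and brevican (Bcan) of 0.08 (adjusted p = 0.907) and -0.53 (adjusted p = 0.0655).

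**Figure D5:**
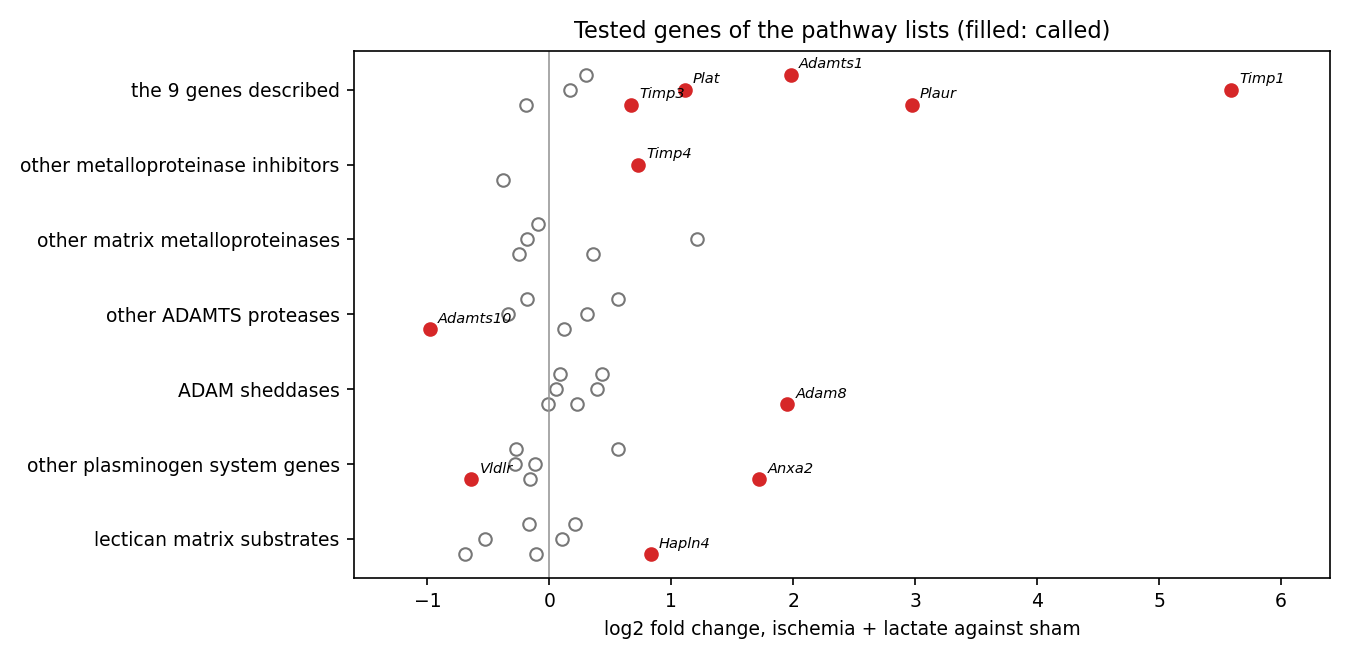
Log2 fold change of lactate-treated ischemic mice against sham (horizontal axis, edgeR) for each tested gene of the 9 and of the 6 other lists (vertical axis). Filled points were called: 5 of the 9 genes, and 4 higher and 2 lower genes of the other lists.

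Several genes that complete the pathway were at or near the floor. Plg, the gene of plasminogen, which the liver supplies to the blood, had 0 counts in all 12 mice, which allows up to 0.0309 CPM over the 97227389 counts. Mmp9, the gelatinase most studied in stroke, had 2 to 4 counts a mouse in sham, 4 to 7 with vehicle and 3 to 5 with lactate. Mmp3 had 0 counts in sham and at most 5 in an ischemic mouse, and Mmp8, the neutrophil collagenase, 0 in sham, 1, 3, 13 and 1 with vehicle and at most 4 with lactate. Serpinb2, an inhibitor of urokinase, had 0 in sham, at most 21 with vehicle and at most 22 with lactate. None of these passed the filter in a comparison with sham, and they were not tested. Serpine2, an inhibitor of thrombin and of both activators, averaged 287 ± 14 CPM in sham, 269 ± 61.9 with vehicle and 259 ± 20.5 with lactate and was not called.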

How the data were processed

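Brain RNA of 12 mice in 3 groups of 4 was read as long nanopore cDNA after 14 PCR cycles, with groups taken from the labels. The authors kept reads of mean quality 7 and 500 bp or more, removed ribosomal RNA, mapped full-length reads (minimap2), made consensus isoforms (pinfish) and matched them to the annotation (gffcompare). The deposited counts are not normalized, and the deposited CPM values are each count over the mouse's total (largest difference 4.7e-06). How reads were counted per gene is not given in the sources used here. The submitters' processing notes name GRCm38 and DESeq 1.10.1. The authors' P-value, log2 fold change and regulation columns were not used. Of the table's 31208 genes, 22036 carry an Ensembl identifier, and 4 lines without a gene and 0 per-sample columns were left out.

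Groups were compared on the counts with edgeR 4.0.16 in R 4.3.3 (quasi-likelihood test with TMM factors), each fit holding the 2 groups in question and the genes that reached a CPM of 1 in 4 or more of their 8 mice. SE is the log2 fold change over the square root of F, and 95% intervals are 1.96 SE. Adjusted p-values are Benjamini-Hochberg values over all genes. All 9 members are described, with each pathway gene called in a comparison and the 3 most similar genes of each member called. Members and lists were chosen with earlier results of these data known. Alternatives were DESeq2 1.42.0, limma 3.58.1 (voom), RLE factors, no filter, all 12 mice in one fit, a replicate block, unadjusted P, adjusted p at any fold, log2(CPM + 1) and each mouse left out. Floors are 3 counts and cover counting error only. On simulated data, 46 of 50 genes changed 4-fold were recovered for vehicle against sham, 17 of 50 changed 2-fold and 3 of 50 changed 1.5-fold, with 4 false calls among 17019 genes. For lactate against sham 49, 29 and 9 of 50 were recovered at the same folds, with 5 false calls among 17262 genes. For lactate against vehicle 45, 14 and 3 of 50 were recovered, with 6 false calls among 17419 genes. Positions are from GENCODE on GRCm38, and promoters from RefSeq on GRCm38.p6. Figures were drawn in Python 3.11.15.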

Additional observations from a re-analysis of the deposited data

Results flagged for a closer look

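Plau in lactate mouse 3, at 1.58 CPM (12 counts), stood apart from the other lactate mice, which held 0.116 to 0.27 CPM. It was the only one of 27 groups of 4 mice in which the gap of the highest or lowest mouse to the next exceeded Dixon's 95% critical value for that share of the range, and chance gives about 1 such group in 20. The neutrophil marker S100a8 was also highest of the lactate mice there, at 19.6 CPM. The part of these cells was not tested.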

How the results depend on the processing

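The 5 calls with lactate against sham held under every alternative that tested them. With vehicle against sham, 4 members were called, 5 by DESeq2, by voom, with all 12 mice in one fit and at unadjusted P (Timp3 in addition), and 1 to 5 when a mouse was left out. The count fell to 2, 1, 1 and 2 without sham mouse 1, 2, 3 and 4, where the calls over all genes fell from 250 to between 114 and 127, and was 5 without vehicle mouse 1. Of the other pathway genes with vehicle, Anxa2 was the 1 called by DESeq2, by voom and without vehicle mouse 1 (0 to 1 with single mice left out), and 5 passed at unadjusted P. Between the treatments 1 member, Timp1, was called by DESeq2 and at unadjusted P, and 4 other pathway genes passed at unadjusted P, 1 higher and 3 lower. Over all 17419 genes DESeq2 called 59 there and 1085 passed at unadjusted P. The cause of these differences was not tested. As a difference of mean log2(CPM + 1), with vehicle Timp1 was 2.87, Adamts1 1.66 and Plaur 1.81, and with lactate they were 4.22, 1.41 and 2.29, smaller than the fitted values because the added 1 weighs on low sham levels.

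Directions turned only in values that were not called. With lactate against sham, Mmp14 was 0.11 by voom and -0.37 to 0.04 with single mice left out, Adamts4 was -0.07 to 0.39, and the Plau difference was -0.20 to 0.20, negative without lactate mouse 3. With vehicle against sham, Adamts4 was -0.13 to 0.34, and the Plau difference kept its direction at 0.02 to 0.58, lowest without vehicle mouse 3. Between the treatments, Adamts4 was 0.01 with all 12 mice in one fit and -0.25 to 0.29 with single mice left out, Timp3 -0.17 to 0.05, Adamts1 -0.74 to 0.06, and the Plau difference -0.52 to 0.05, positive without vehicle mouse 3. With few reads of Mmp14 and Plau, only large differences could be seen.

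The labels number the mice of each group from 1 to 4, but a number stands for a different animal in each. After each gene's group mean was subtracted, the correlation of same-numbered mice was -0.17 to 0.176. The lactate mouse most like sham mice 1, 2 and 3 had their number. With vehicle this held for sham mice 1 and 4, and between vehicle and lactate for no mouse. With the number as a block, 4 members were called with vehicle, 5 with lactate and 0 between the treatments, the same members as without it (Timp1 with vehicle 4.19, adjusted p = 4.95e-05). Over all genes the calls went from 250 to 198 with vehicle and from 1795 to 1927 with lactate.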
